A study of Homo sapiens with 8 samples.

Results

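NCI-H1703 is a human cell line of non-small cell lung cancer whose growth is slowed by CPL304110, an inhibitor of the fibroblast growth factor (FGF) receptors, and NCI-H1703R is the variant of it that was selected to grow in the presence of that inhibitor. Of the 8 RNA-seq libraries of the study, the 4 made from this line were compared, 2 replicates of the sensitive NCI-H1703 and 2 of the resistant NCI-H1703R, and they were chosen by the cell line and the variant that their labels give. NCI-H1703R was obtained by raising CPL304110 from 50 nM to a final 5 µM over 4 to 6 months of culture, and no such selection is described for NCI-H1703. Both variants grew in medium with serum, received new medium on the day after seeding and were collected 24 h later, and the whole procedure was carried out again for replicate 2. Whether that last medium held CPL304110 is not stated, so a lasting change and an effect of inhibitor present at harvest cannot be told apart. NCI-H1703R is 1 selected line, and no source used here says whether it is a clone or a mixed population, so that the replicates measure the spread between cultures of this line and not between independent selections.

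FGF receptors are tyrosine kinases of the cell surface. Once an FGF ligand binds, the adaptor FRS2 and the GTPase RAS carry the signal to the kinases RAF, MEK and ERK, while PLCG1 and PI3K open side branches. ERK switches on genes that restrain the same route, among them the Sprouty and SPRED inhibitors and the DUSP phosphatases, together with the ETV transcription factors and cyclin D1, so that the RNA of these genes is widely used as a readout of ERK activity. NCI-H1703 is known for extra copies of FGFR1 and of PDGFRA, a receptor of platelet-derived growth factor.

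The libraries summed to between 33800389 and 38570135 estimated counts, and 3 counts, taken as the limit of detection, corresponded to between 0.0793 and 0.0901 CPM, the usual unit of counts scaled to library size, here not corrected for gene length, a limit that covers counting error only. A gene was called higher or lower in NCI-H1703R where the two-sided quasi-likelihood test of edgeR, adjusted by Benjamini and Hochberg over 18203 genes, gave a p under 0.1. Of these genes 2683, or 14.7%, were called, 1286 higher (7.06%) and 1397 lower (7.67%). A mean of at least 5 CPM was reached by 2175 of the 2683, and genes under that level were called less often. The shares of all genes include these low genes, so a list of well-expressed genes can lie above them for that reason. Most changes were small. The median absolute log2 fold change of the called genes was 0.73 and 977 of them changed more than 2-fold, 298 upward and 679 downward. With the replicate number as a block 6357 genes (34.9%) were called, 3311 higher (18.2%) and 3046 lower (16.7%), and they included all 2683. The test has 2 residual degrees of freedom. It was refitted with each of the 4 libraries left out in turn, and the count fell each time, most without a sensitive library. In such a fit the lone library has no replicate, and the spread comes only from the pair of the other variant. Between 2675 and 2683 of the 2683 genes kept the sign of their change in these 4 fits, as did all 188 called genes named in the text. Fewer of those 188 genes were still called when a sensitive library was left out than when a resistant one was. Many of the calls given below are therefore lost when 1 library is left out, above all a sensitive one. The counts of list members moved likewise, and the lists themselves were drawn up with earlier results of these data known. Their shares are therefore descriptions and not tests. Of the 80 counts, higher and lower in each of 40 gene lists, 64 changed by more than 1.5 times without NCI-H1703 replicate 1, 64 without NCI-H1703 replicate 2, 34 without NCI-H1703R replicate 1 and 36 without NCI-H1703R replicate 2.

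The variants were checked against markers of cell type. VIM, an intermediate filament of mesenchymal cells, stood at 3636 and 3649 CPM in the NCI-H1703 replicates and at 2691 and 3082 in NCI-H1703R (adjusted p = 0.216, and 0.00767 with the replicate block), whereas CDH1, the cadherin of epithelia, had 0.899 and 1.32 against 0.648 and 0.636 CPM. Markers of leukocytes and endothelium were close to absent. PTPRC, the pan-leukocyte antigen, was at 0 in all 4 libraries, and the 5 endothelial markers tested summed to at most 2.06 CPM. Of the 7 immune markers tested only CD68, which is also a lysosomal protein, was called (21.9 and 20.3 CPM against 44.0 and 55.2), or 14.3% higher against 7.06% of all genes. CD68 made up most of the summed level of that list, 27.2 and 22.8 CPM in NCI-H1703 and 49.2 and 57.7 CPM in NCI-H1703R. The 10 fibroblast and smooth muscle markers summed to 10.4 and 10.8 CPM in NCI-H1703 and to 43.7 and 38.7 CPM in NCI-H1703R. COL1A1, FAP and ACTA2 were the 3 of them that were called, all higher (30% against 7.06% of all genes). COL1A1 made up most of the summed level in NCI-H1703R, and 3 of the 10 markers had a negative log2 fold change. The part of these markers in the results on matrix and cell state was not tested. In bulk RNA, fewer cells of a kind and less RNA per cell cannot be told apart.

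The FGF system itself changed at a few points. FGF5, a secreted FGF ligand, fell to a few counts in NCI-H1703R, and FGFR3 rose while FGFR1 fell. FGF5 had 1786 and 1571 counts in the NCI-H1703 replicates and 8 and 3 in the NCI-H1703R replicates. Its log2 fold change was -8.29 (adjusted p = 0.000199). FGF5 is found at 80266639 to 80336680 of chromosome 4 (GRCh38), and its neighbour CFAP299 shares exon sequence with it on the same strand. It was the only called gene of the 12 FGF ligands tested, or 8.33% called lower against 7.67% of all genes. Under the replicate block 3 were called lower. FGF2, the broadly acting basic FGF, had 64.6 and 87.1 CPM in NCI-H1703 and 51.1 and 57.7 in NCI-H1703R (adjusted p = 0.142, and 0.00212 with the replicate block).

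FGFR1, the receptor with extra copies in this line, had 821 and 808 CPM in the sensitive replicates and 568 and 577 CPM in the resistant ones, a fall of 0.51 on the log2 scale (SE 0.10, adjusted p = 0.032). Its exons overlap LETM2 on the other strand, and the use of strand in counting is not given in the sources used here. FGFR3 had 65.9 and 55.6 CPM and then 369 and 294, which is 5.45-fold higher (log2 fold change 2.45, SE 0.15, adjusted p = 0.00135). The gap between the variants was thus larger than that between replicates for both receptors, and they moved in opposite directions. FGFR4 stayed between 26.1 and 28.5 CPM in the 4 libraries (log2 fold change -0.07, adjusted p = 0.737), while FGFR2 had 13.6 and 3.12 CPM against 10.4 and 4.85, with more difference between replicates than between variants (adjusted p = 0.94). The adaptor FRS2 had 24.6 and 29.8 CPM against 21.1 and 23.3 (adjusted p = 0.269, and 0.0473 with the block) and PLCG1 had 101 and 86.3 against 116 and 93.4 (adjusted p = 0.556). Of the 15 FGF receptors and adaptors, FGFR3 alone was called higher and FGFR1 alone lower. Each was 6.67% of the list, against 7.06% higher and 7.67% lower of all genes. With the replicate block 2 were called higher and 4 lower. The median log2 fold change of the list was -0.07, against 0 over all genes tested. FGFR1 was not called without NCI-H1703 replicate 1 or without NCI-H1703 replicate 2.

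Genes that ERK induces were mostly lower in NCI-H1703R. Western blots of the study showed no change of ERK protein or of its phosphorylation in this variant. ERK activity was not measured here. Of 24 ERK output genes tested 15 fell, which is 62.5% against 7.67% of all genes, 2 rose and 7 were not called, and with the block 18 fell and 3 rose. The median log2 fold change of the list was -0.81. Sprouty genes, which encode inhibitors of receptor tyrosine kinase signalling, were among the largest falls. SPRY1 went from 9.92 and 12.5 CPM to 0.351 and 0.133 (log2 fold change -5.51, adjusted p = 0.00167), SPRY2 from 5.24 and 4.35 to 0.567 and 0.212 (-3.62, adjusted p = 0.0082) and SPRY4 from 95.0 and 87.7 to 10.7 and 13.6 (-2.91, adjusted p = 0.000662). In each of the 3 genes both resistant libraries lay below both sensitive ones. Separation of this kind alone is common, since 51.2% of all genes did not overlap between the variants. The related SPRED genes fell less, with log2 fold changes of -1.48 for SPRED3, -0.77 for SPRED2 and -0.62 for SPRED1.

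The ETV transcription factors and the DUSP phosphatases, which remove the activating phosphates of ERK, were lower as well. ETV4 had 23.5 and 25.3 CPM in NCI-H1703 and 1.78 and 2.84 in NCI-H1703R (log2 fold change -3.39, SE 0.21, adjusted p = 0.00134). ETV5 had 69.2 and 80.3 CPM and then 26.9 and 44.2, a smaller fall of 1.07 (adjusted p = 0.0463), and the 2 resistant replicates stood further apart than the sensitive ones. ETV1 fell by 1.89 from a low level. DUSP6, which acts on ERK in the cytoplasm, had 6.61 and 9.37 CPM against 1.22 and 1.93 (log2 fold change -2.33, SE 0.33, adjusted p = 0.0137), and DUSP5, its nuclear counterpart, had 31.3 and 30.3 against 6.83 and 9.36 (-1.93, adjusted p = 0.00303). CCND1, the gene of cyclin D1, fell from 90.0 and 88.7 to 13.5 and 17.0 CPM (log2 fold change -2.55, SE 0.13, adjusted p = 0.000795). PHLDA1, EPHA2 and IER2 were also called lower (log2 fold changes -0.84, -0.60 and -0.38).

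Some early genes of the same list behaved differently. EGR1, an immediate-early transcription factor, rose from 8.99 and 10.1 CPM to 30.2 and 41.0 (log2 fold change 1.90, SE 0.19, adjusted p = 0.00444), and EGR3 had 3 and 2 counts in the NCI-H1703 replicates and 18 and 39 in the NCI-H1703R replicates, also called higher but with too few counts for a level. MYC had 193 and 199 CPM in NCI-H1703 and 151 and 175 in NCI-H1703R (log2 fold change -0.27, adjusted p = 0.191), and JUNB had 178 and 185 against 142 and 164 (adjusted p = 0.224). With the replicate block MYC and JUNB reached adjusted p-values of 0.0129 and 0.0186. Of the 24 genes of the list 19 had a negative log2 fold change and 5 a positive one, among the latter some that were not called. The count of 15 lower ERK output genes was 5 without NCI-H1703 replicate 1, 5 without NCI-H1703 replicate 2, 11 without NCI-H1703R replicate 1 and 15 without NCI-H1703R replicate 2, while the median of the list was -0.59 or lower in all 4 fits.

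**Figure D1:**
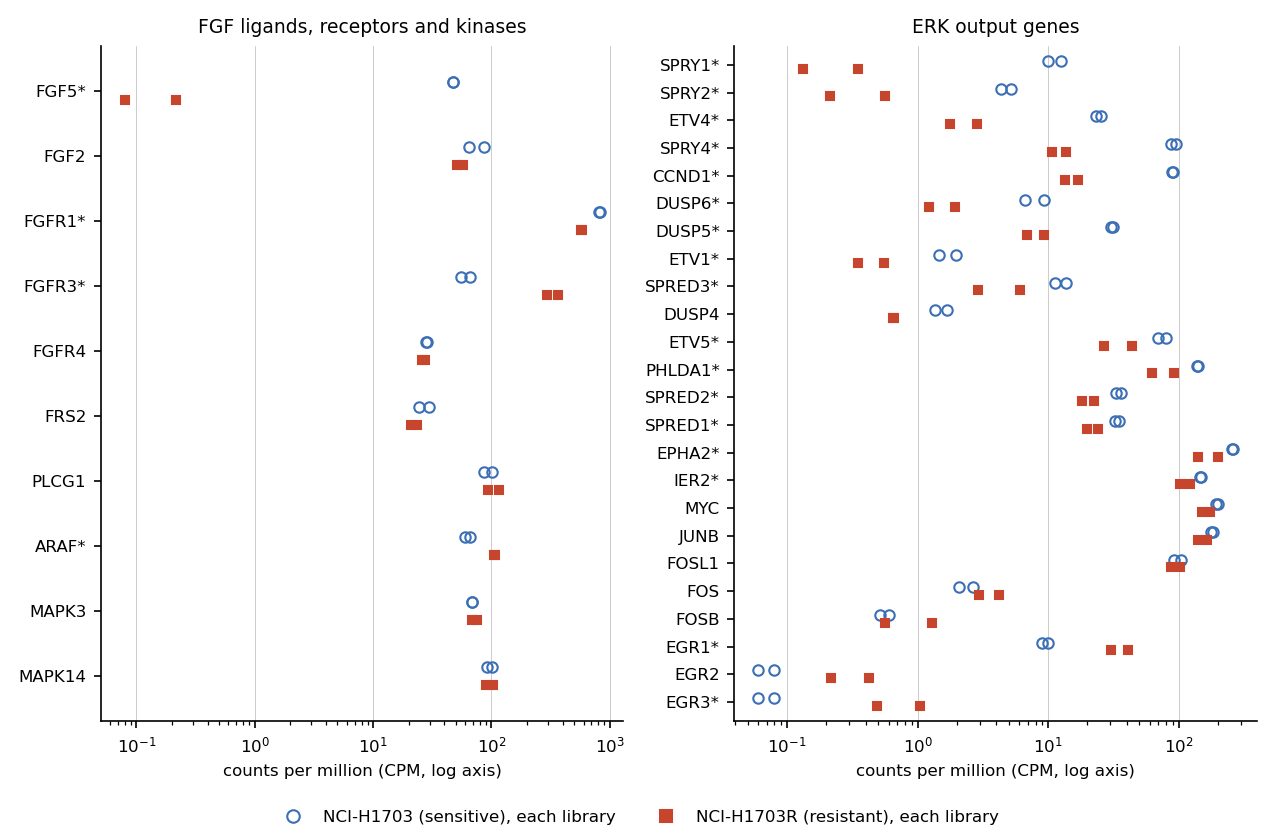
Level of FGF ligands, receptors and kinases (left) and of ERK output genes with counts in each of the 4 libraries (right), in CPM on a log axis, with 1 point per library. Open blue circles are the NCI-H1703 and filled red squares the NCI-H1703R replicates, and an asterisk marks genes called at an adjusted p under 0.1. FGF5 and the Sprouty genes lie far to the left in NCI-H1703R, FGFR3 and EGR1 lie to the right, and MAPK3 and MAPK14 lie close together in both variants.

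The genes of the cascade that carries the signal changed in both directions. MAPK3, the gene of ERK1, had 68.3 and 68.9 CPM against 68.8 and 74.9 (adjusted p = 0.725). Of 19 genes of the RAS-RAF-ERK cascade 2 rose (10.5% against 7.06% of all genes) and 3 fell (15.8% against 7.67%), 5 and 4 with the block. ARAF, a kinase of the RAF family, rose by 0.76 on the log2 scale. RASA1 and RASAL2, which encode proteins that switch RAS off, fell (-0.35 and -0.45).

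The p38 kinases, a stress-activated branch of the MAP kinases, were examined because the study follows p38 in the resistant variants. By Western blot the study found more p38 protein and more phosphorylated p38 in NCI-H1703R. RNA levels measure neither of these. MAPK14, the gene of p38α, had 91.3 and 102 CPM in NCI-H1703 and 90.4 and 104 in NCI-H1703R, so that the 2 variants overlapped (log2 fold change 0.01, SE 0.11, adjusted p = 1). Of 25 p38 pathway genes 2 were called higher (8% against 7.06% of all genes) and 4 lower (16% against 7.67%). With the replicate block 6 were called higher and 5 lower, where 18.2% of all genes were called higher and 16.7% lower. The genes called higher were TAB3 (log2 fold change 0.55) and MAPKAPK3 (0.42), an adaptor of the upstream kinase TAK1 and a kinase that p38 activates. Those called lower were MAP3K5 (-1.26), DUSP1 (-0.96), GADD45A (-0.57) and GADD45B (-0.74), which are an upstream kinase, a phosphatase of p38 and stress-induced activators. MAPK11 had 158 and 142 CPM against 195 and 178 (adjusted p = 0.13, and 0.00389 with the block). MAPK12, whose exons overlap HDAC10, had 184 and 127 against 255 and 181 (0.269, and 0.000297 with the block). In MAPK12 replicate 1 exceeded replicate 2 in both variants, and the block removes that difference. MAP3K20, a stress-activated upstream kinase, had 294 and 334 against 375 and 386 (0.168, and 0.00835 with the block). No p38 pathway gene was called without NCI-H1703 replicate 1 or without NCI-H1703 replicate 2.

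In the PI3K-AKT-mTOR list 2 of 27 genes rose (7.41% against 7.06% of all genes) and 4 fell (14.8% against 7.67%). With the block 6 rose and 8 fell, where 18.2% of all genes were called higher and 16.7% lower. PIK3CA, a catalytic subunit of PI3K, rose by 0.52, and PIK3CD, another one, fell by 0.94 on the log2 scale. AKT1 stayed between 296 and 324 CPM (adjusted p = 0.66). PHLPP1, a phosphatase of AKT, fell by 0.74, and EIF4EBP1, a repressor of cap-dependent translation, had 329.7 and 338 CPM against 211 and 248 (-0.54, adjusted p = 0.0385). PTK2, the gene of focal adhesion kinase, had 147 and 158 against 127 and 137 CPM (adjusted p = 0.243, and 0.0304 with the block).

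Of 37 other receptor tyrosine kinases 2 rose (5.41% against 7.06% of all genes) and 7 fell (18.9% against 7.67%), 5 and 13 with the block, and the median log2 fold change was -0.45. PDGFRA, the other receptor with extra copies in this line, had 1185 and 1307 CPM in NCI-H1703 and 1077 and 1089 in NCI-H1703R (log2 fold change -0.20, adjusted p = 0.336, and 0.0437 with the block). ERBB2 had 203 and 218 CPM and then 278 and 294 (0.44, adjusted p = 0.0425), while EGFR had 326 and 337 against 229 and 256 (-0.45, adjusted p = 0.0463). MET, a receptor often linked with escape from other kinase inhibitors, had 128 and 147 against 99.4 and 115 (adjusted p = 0.129, and 0.002 with the block). EPHB2 fell from 14.3 and 17.3 CPM to 5.00 and 5.01. Among 30 ligands of these receptors 4 rose (13.3%) and 5 fell (16.7%), 7 and 5 with the block. HBEGF, a ligand of EGFR, went from 84.2 and 98.4 to 131 and 172 CPM (0.73, adjusted p = 0.047). BDNF, which binds the receptor TrkB, went from 9.57 and 10.8 to 1.59 and 1.46 (-2.74, adjusted p = 0.00242) and NRG1, a ligand of ERBB3 and ERBB4, from 4.89 and 7.42 to 0.459 and 0.557 (-3.58, adjusted p = 0.00761).

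Genes of lysosomes and autophagy formed the list with the largest share of higher members. The lists were drawn up with earlier results of these data known. Lysosomes degrade what endocytosis and autophagy deliver, and their genes are known to be switched on together by TFEB, TFE3 and MITF, which bind the motif TCACGTG. Of 28 tested 17 rose, which is 60.7% against 7.06% of all genes, and CTSL alone fell (-0.44). With the block 23 rose and 1 fell. The median log2 fold change was 0.56. ULK1, the kinase that starts autophagy, had 132 and 93.2 CPM in NCI-H1703 and 677 and 486 in NCI-H1703R (log2 fold change 2.37, SE 0.23, adjusted p = 0.00432). CTSD, the protease cathepsin D, had 350.2 and 326 against 830.2 and 822 (1.29, SE 0.10, adjusted p = 0.00204). The gap between the variants exceeded that between replicates in both. GPNMB, a membrane glycoprotein of lysosomes, rose by 2.04, the enzymes CTSA, GAA and HEXA by 0.99, 0.97 and 0.85, the autophagosome protein WIPI1 by 0.95 and the calcium channel MCOLN1 by 0.74. MCOLN1 shares exon sequence with PNPLA6 on the same strand, and CTSA overlaps PLTP on the other strand.

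The rise was also large on the CPM scale. PSAP and GRN are lysosomal genes outside the list. PSAP, which gives rise to the saposins that assist lipid breakdown in lysosomes, had 2275 and 2208 CPM against 3356 and 3112 (log2 fold change 0.53, adjusted p = 0.0629). SQSTM1, the autophagy receptor p62, had 2461 and 2356 against 3137 and 3531 (0.47, adjusted p = 0.0976), and GRN, the progranulin gene, had 889 and 877 against 1429.7 and 1460.4 (0.71, adjusted p = 0.0155). These 3 and CTSD were among the 10 largest rises of all genes on that scale. RRAGD, a GTPase through which lysosomes report amino acids to mTORC1 and a known target of TFEB, was among the 15 largest rises by fold, from 1.01 and 1.68 to 18.0 and 15.1 CPM (log2 fold change 3.64, adjusted p = 0.00167). Of the transcription factors, TFE3, which lies in a stretch of chromosome X whose genes were higher as a group, had 101 and 106 CPM and then 166 and 173 (0.72, adjusted p = 0.00888) and TFEB had 39.3 and 39.7 against 48.0 and 54.1 (0.37, adjusted p = 0.0894). LAMP1, a protein of the lysosomal membrane, had 442 and 430.4 against 479 and 462 CPM (adjusted p = 0.533), and it was among the 10 members that were not called. Without NCI-H1703 replicate 1 or NCI-H1703 replicate 2 it was 3 genes that were called higher, without NCI-H1703R replicate 1 it was 17 and without NCI-H1703R replicate 2 it was 13, and the median stayed between 0.47 and 0.61.

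The promoters of lysosomal genes were searched for the motif that TFEB and its relatives are known to read. The window runs from 250 bases before to 50 bases after the start site and comes from RefSeq (GRCh38.p14), where 20 of the 28 genes had an entry. TCACGTG was searched on both strands, where a match on the other strand reads CACGTGA, and overlapping matches counted once. It was found in 6 of the 20 windows (30%), against 3.82% of 27305 windows of all genes, 5.46% of 12291 windows of genes tested, 10.9% of 1003 windows of genes called higher and 4.86% of 1009 windows of genes called lower. The 6 genes were ATP6V0D1, CTSA, CTSD, GAA, MCOLN1 and LAMP1. The first 5 were called higher and LAMP1, with the most matches, was not. These 5 were 41.7% of the 12 windows of members called higher, and ULK1 and GPNMB were among those without a match. A match is a description of the sequence and does not show binding. The windows printed were chosen from those with a match. The windows of CTSD (minus strand, chr11:1763878-1764177), GAA (plus strand, chr17:80101331-80101630) and MCOLN1 (plus strand, chr19:7522374-7522673) follow, 5′ to 3′, with the matches in capitals.
CTSD: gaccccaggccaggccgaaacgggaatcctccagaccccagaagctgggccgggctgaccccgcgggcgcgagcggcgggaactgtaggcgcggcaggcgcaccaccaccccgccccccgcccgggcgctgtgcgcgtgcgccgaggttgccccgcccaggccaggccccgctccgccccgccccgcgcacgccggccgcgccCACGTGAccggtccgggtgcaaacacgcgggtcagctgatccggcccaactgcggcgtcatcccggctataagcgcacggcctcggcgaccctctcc
GAA: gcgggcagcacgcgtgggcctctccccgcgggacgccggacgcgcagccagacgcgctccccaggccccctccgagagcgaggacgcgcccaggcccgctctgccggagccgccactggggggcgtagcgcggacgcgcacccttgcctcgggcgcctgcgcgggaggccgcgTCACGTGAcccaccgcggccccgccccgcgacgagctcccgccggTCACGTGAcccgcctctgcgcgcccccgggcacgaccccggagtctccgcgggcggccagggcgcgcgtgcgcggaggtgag
MCOLN1: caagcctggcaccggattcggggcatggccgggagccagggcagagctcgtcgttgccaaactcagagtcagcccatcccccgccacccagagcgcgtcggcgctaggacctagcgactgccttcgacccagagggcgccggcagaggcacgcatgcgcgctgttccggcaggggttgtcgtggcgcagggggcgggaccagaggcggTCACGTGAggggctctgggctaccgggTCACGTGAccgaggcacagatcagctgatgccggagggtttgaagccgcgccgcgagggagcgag

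Genes of the integrated stress response rose next most often. In this response, kinases that sense lack of amino acids, misfolded protein or other stress raise translation of the transcription factor ATF4, which then induces amino acid synthesis, transport and tRNA charging. Of 37 genes tested 16 rose (43.2% against 7.06% of all genes) and 1 fell, 23 and 1 with the block, and the median log2 fold change was 0.43. SLC7A11, the cystine transporter, went from 90.3 and 88.6 CPM to 212 and 249.8 (log2 fold change 1.37, SE 0.11, adjusted p = 0.00228). DDIT3, the stress-induced factor CHOP, had 29.0 and 22.6 CPM and then 66.1 and 56.0 (1.24, SE 0.16, adjusted p = 0.00967), and it overlaps MARS1 on the other strand. ASNS, which makes asparagine, rose by 0.43, CHAC1, which degrades glutathione, by 0.72, PCK2 by 0.92, CBS by 0.71 and the tRNA synthetase gene GARS1 by 0.71. ATF4 itself, whose control is mainly at the level of translation, had 421 and 412 against 503 and 525 CPM (adjusted p = 0.109, and 0.00482 with the block). GDF15, a secreted factor that this response is known to induce, was among the 15 largest rises of all genes, from 3.31 and 2.07 to 43.0 and 50.8 CPM (log2 fold change 4.11, adjusted p = 0.000795). The only member that fell was ATF5 (-0.94), which lies in a stretch of chromosome 19 whose genes were lower as a group. The count of 16 was 3 without NCI-H1703 replicate 1, 1 without NCI-H1703 replicate 2, 16 without NCI-H1703R replicate 1 and 11 without NCI-H1703R replicate 2, and the median stayed between 0.33 and 0.46.

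The ATF4 element TGATGNAA, searched in the same way, lay in 8 of 31 RefSeq windows of this list (25.8%), against 3.67% of all windows and 1.80% of those of genes tested. Among the 15 windows of members called higher it lay in those of ASNS, CHAC1 and SLC3A2 only, and among genes called higher as a whole it lay in 2.79%. The windows of ASNS (minus strand, chr7:97872359-97872658) and CHAC1 (plus strand, chr15:40953221-40953520) are given for comparison with those of the lysosomal genes, with the match in capitals, which in CHAC1 is on the other strand.
ASNS: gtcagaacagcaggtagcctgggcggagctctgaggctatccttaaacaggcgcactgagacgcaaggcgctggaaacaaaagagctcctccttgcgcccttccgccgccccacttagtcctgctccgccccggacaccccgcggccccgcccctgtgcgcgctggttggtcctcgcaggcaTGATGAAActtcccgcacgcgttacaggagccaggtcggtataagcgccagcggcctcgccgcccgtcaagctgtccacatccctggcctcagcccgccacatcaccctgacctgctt
CHAC1: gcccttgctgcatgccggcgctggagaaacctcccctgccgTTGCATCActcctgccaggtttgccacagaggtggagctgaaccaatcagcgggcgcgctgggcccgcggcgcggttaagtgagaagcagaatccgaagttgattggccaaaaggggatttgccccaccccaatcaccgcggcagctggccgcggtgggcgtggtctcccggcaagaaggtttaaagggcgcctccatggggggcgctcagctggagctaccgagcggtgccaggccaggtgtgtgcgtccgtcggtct

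The related unfolded protein response, which the endoplasmic reticulum starts, had 5 of 21 genes higher (23.8%) and 1 lower (4.76%), with a median of 0.16. The shares of all genes were 7.06% and 7.67%, and with the block 9 list members were higher and 2 lower. HERPUD1, which helps to clear misfolded protein, and the chaperone DNAJC3 rose by 0.47 and 0.55. NRF2 is the transcription factor of the response to oxidants, and of 30 genes of a list that holds its own gene, that of its inhibitor KEAP1 and its targets 10 rose (33.3% against 7.06% of all genes) and 1 fell, with a median of 0.26. With the replicate block these counts were 17 and 2. OSGIN1 rose most after SLC7A11, from 78.0 and 63.2 CPM to 179 and 176 (log2 fold change 1.33, adjusted p = 0.00358). GCLM, which is needed to make glutathione, rose by 0.67, CBR1 by 0.70, TKT of the pentose phosphate pathway by 0.63 and SRXN1 by 0.63. NFE2L2, the gene of NRF2, rose by 0.33 (adjusted p = 0.092). HMOX1 and TXNRD1, classical targets that encode heme oxygenase and thioredoxin reductase, were not called (0.29 and -0.33, with adjusted p-values of 0.0262 and 0.00351 under the block). The count of 10 was 2 without NCI-H1703 replicate 1, 2 without NCI-H1703 replicate 2, 8 without NCI-H1703R replicate 1 and 6 without NCI-H1703R replicate 2.

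**Figure D2:**
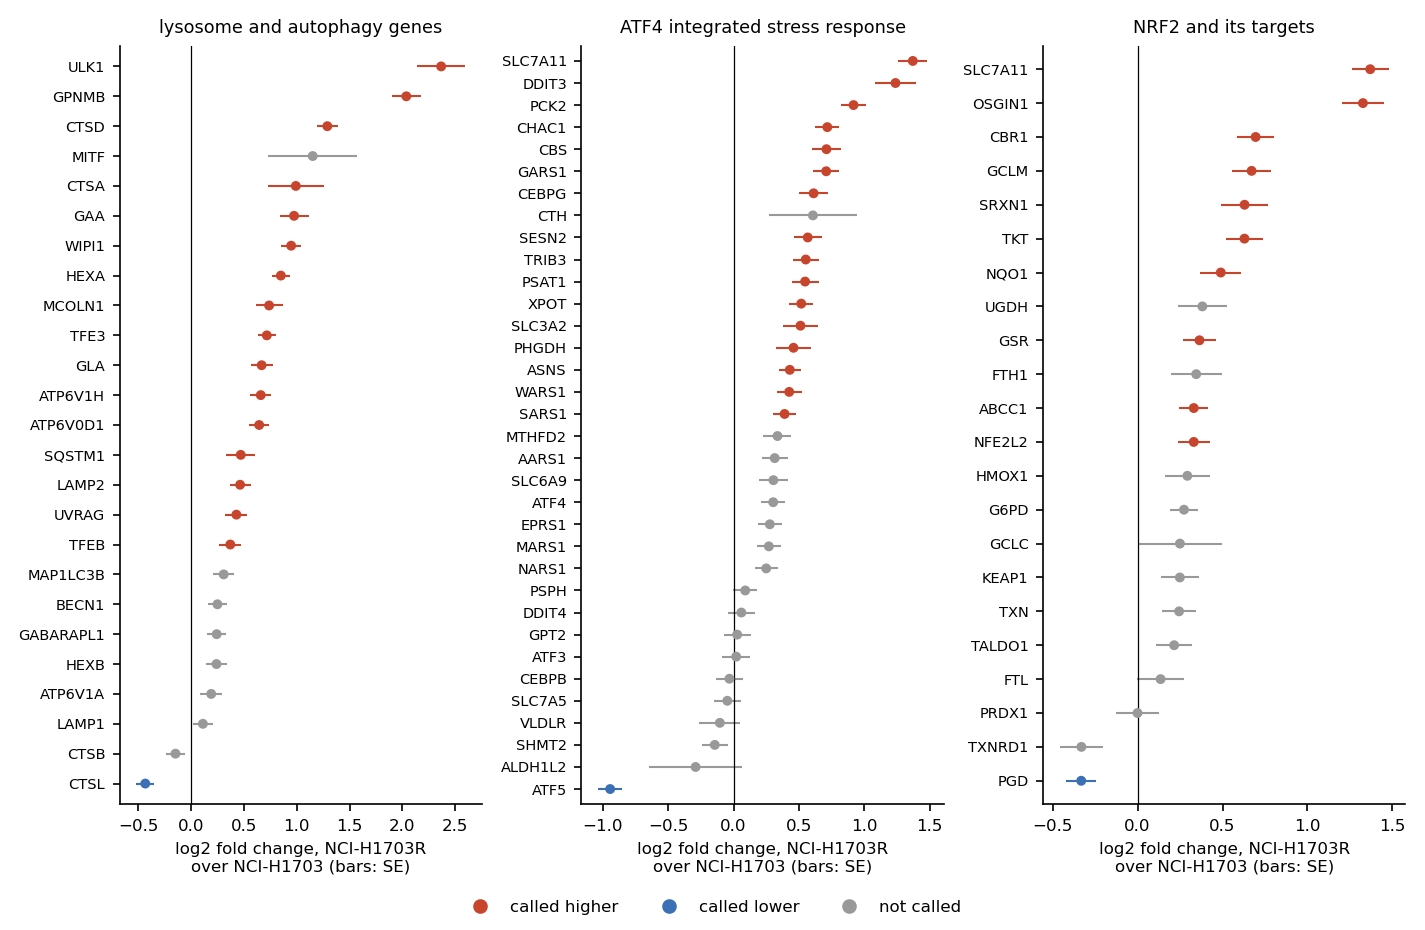
Log2 fold change of NCI-H1703R over NCI-H1703 for members, with a mean of at least 1 CPM, of the lists of lysosome and autophagy genes, of the ATF4 integrated stress response and of NRF2 and its targets. Points are estimates of edgeR's fit of 2 against 2 libraries, and bars are standard errors worked back from the F statistic of the test. Red and blue mark genes called higher and lower and grey those not called. Most points lie to the right of 0, with CTSL and ATF5 the called members on the left in the first 2 lists.

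Genes of lineage and adhesion changed in both directions, with some of the largest falls of all. SOX2, a transcription factor of squamous and neural progenitors, fell from 37.2 and 37.4 CPM to 0.567 and 0.186 (log2 fold change -6.62, adjusted p = 0.000399). NEFH, the heavy neurofilament, fell from 149 and 150.4 to 2.73 and 3.15 (-5.67, SE 0.12, adjusted p = 0.000199). CDH2, the neural cadherin, fell from 49.1 and 48.8 to 1.11 and 1.17 (-5.42, adjusted p = 0.000199). The 2 sensitive replicates agreed closely for all 3 genes, and the resistant ones were near or under 3 CPM. Of 25 neural and neuroendocrine genes 6 fell (24% against 7.67% of all genes) and 2 rose (8% against 7.06%), 8 and 2 with the block. SYT1 and L1CAM fell (-1.21 and -1.11), whereas MAP2, a microtubule protein of dendrites, rose from 64.4 and 75.3 to 210.2 and 224 CPM (1.64, adjusted p = 0.00155). Among the transcription factors of lung and squamous lineage, TFAP2C and GATA6 fell (-2.04 and -2.17), and TFAP2A rose by 1.23.

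Epithelial genes were lower more often than higher, and mesenchymal genes moved both ways. Of 38 epithelial genes tested 6 fell (15.8% against 7.67% of all genes) and 1 rose (2.63% against 7.06%). Their median log2 fold change was -0.84, and 21 of the 38 had a mean under 1 CPM. With the block 9 fell and 2 rose. KRT18, a keratin of simple epithelia, fell from 62.9 and 65.7 CPM to 2.94 and 2.49 (log2 fold change -4.56, adjusted p = 0.000199). It shares exon sequence with KRT8 on the other strand and has many near-identical pseudogenes, which makes its level uncertain. PKP2 and DSG2 of desmosomes (-2.22 and -1.60) and OCLN of tight junctions (-0.97) fell, while the tight junction gene CLDN1 rose from 118 and 138 to 277 and 373 CPM (1.34, adjusted p = 0.00969). Of 31 mesenchymal genes 3 rose (9.68%) and 5 fell (16.1%), and 9 and 8 with the block. ZEB2, a repressor of epithelial genes, rose from 0.370 and 0.601 CPM to 5.16 and 5.99 (3.53, adjusted p = 0.0048) and FAP and ACTA2 by 1.51 and 1.33. Besides CDH2, the surface enzyme NT5E (-3.13), the actin-binding CALD1 (-1.65) and TPM1 (-1.40) and FN1 (-0.74) fell.

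**Figure D3:**
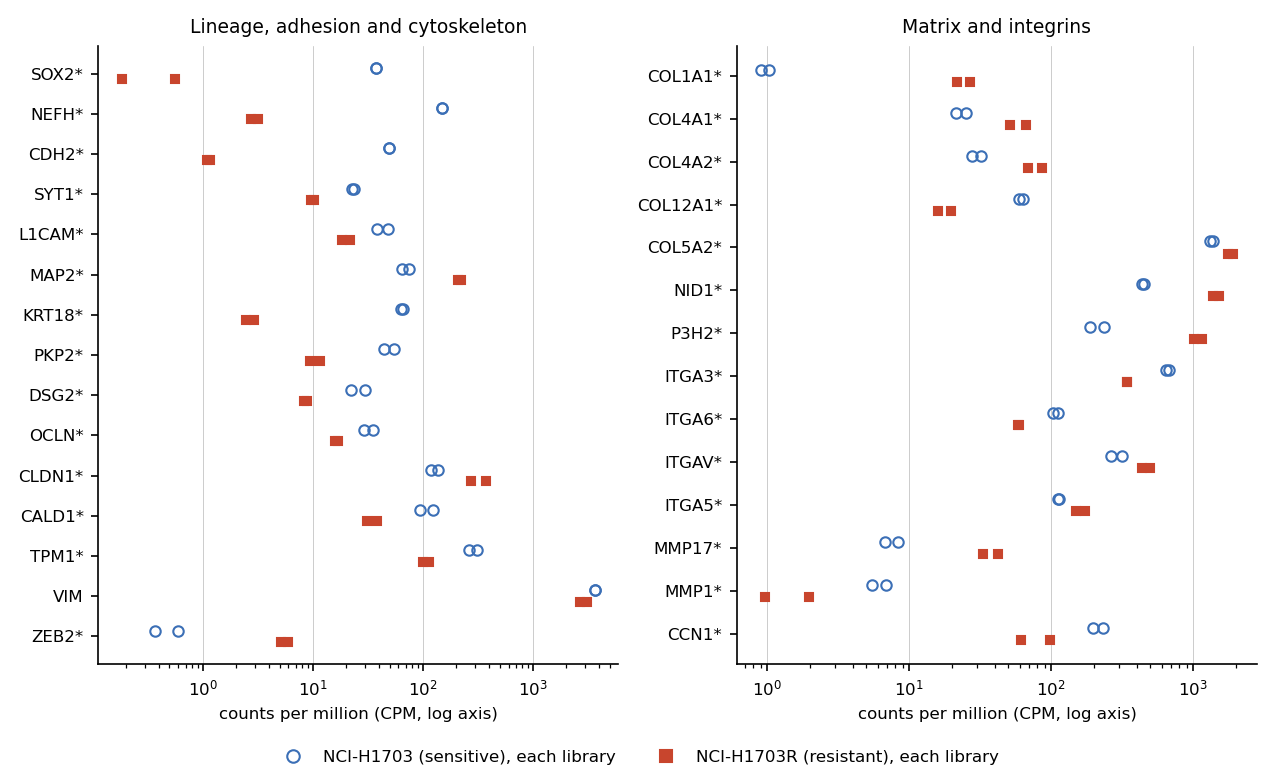
Level of genes of lineage, adhesion and cytoskeleton (left) and of matrix and integrins (right), in CPM on a log axis, with 1 point per library (open blue circles NCI-H1703, filled red squares NCI-H1703R). Asterisks mark genes called at an adjusted p under 0.1. SOX2, NEFH, CDH2 and KRT18 lie well to the left in NCI-H1703R and ZEB2, COL1A1, P3H2 and MMP17 well to the right.

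Genes of the extracellular matrix and of its receptors and proteases changed in both directions. Of 34 collagen genes 5 rose (14.7% against 7.06% of all genes) and 2 fell (5.88% against 7.67%), 8 and 6 with the block. COL1A1, a chain of type I collagen, rose from 1.03 and 0.901 CPM to 27.0 and 21.9 (log2 fold change 4.65, adjusted p = 0.000743). The basement membrane genes COL4A1 and COL4A2 rose by 1.35 and 1.38, and NID1, which links collagen IV to laminin, had the largest rise of all genes in CPM, from 453 and 437 to 1509.9 and 1385 CPM (1.70, adjusted p = 0.00137). P3H2, a collagen prolyl hydroxylase, went from 189 and 236 to 1013 and 1158 CPM (2.35, adjusted p = 0.00137). COL12A1 fell from 59.7 and 63.2 to 16.1 and 19.6 CPM (-1.78). The integrins ITGAV and ITGA5, which bind RGD ligands such as fibronectin, rose by 0.69 and 0.52, and the laminin-binding ITGA3 and ITGA6 fell (-0.95 and -0.87). Of 30 integrin and laminin genes 4 rose and 4 fell (13.3% each), 7 and 7 with the block. Of 28 matrix proteases and inhibitors 4 rose (14.3%) and 10 fell (35.7%), 7 and 11 with the block. MMP17 rose from 8.36 and 6.79 to 42.3 and 33.2 CPM (2.31), MMP1 and MMP10 fell (-2.08 and -3.68) and PLAUR, the urokinase receptor, fell by 1.11.

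YAP and TAZ are co-activators that respond to cell shape and adhesion and work through the TEAD factors. Of 24 genes of a list that holds these regulators together with their targets 12 fell (50% against 7.67% of all genes) and 3 rose, 16 and 3 with the block, with a median of -0.46. CCN1 went from 198 and 231 CPM to 61.6 and 98.8 (log2 fold change -1.42, adjusted p = 0.02), and TEAD2 and AJUBA fell (-1.25 and -0.73). Of the co-activators, YAP1 had 201 and 227 CPM against 168 and 193 (adjusted p = 0.252, and 0.0116 with the block), and WWTR1, the gene of TAZ, rose by 0.53. The count of 12 was 2 without NCI-H1703 replicate 1, 2 without NCI-H1703 replicate 2, 8 without NCI-H1703R replicate 1 and 9 without NCI-H1703R replicate 2. In the TGF-β and BMP list 9 of 29 genes fell (31.0%) and 3 rose (10.3% against 7.06% of all genes), 15 and 4 with the block. The receptor TGFBR2 had 368 and 426 CPM against 211 and 235 (-0.83, adjusted p = 0.0132), the feedback inhibitor SMAD7 fell by 0.56 and LTBP1, which stores TGF-β in the matrix, fell by 1.01, while SMAD3 and ID4 rose by 0.47 and 1.73. Of 34 Wnt pathway genes 7 fell (20.6% against 7.67% of all genes) and none rose, 13 and 1 with the block. WNT5B went from 100.2 and 101 to 14.2 and 15.8 CPM (-2.74, adjusted p = 0.000345), and AXIN2, a feedback target of β-catenin, from 14.5 and 14.7 to 2.92 and 2.76 (-2.37, adjusted p = 0.00167).

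Genes of proliferation were slightly lower. Of 38 genes of DNA replication and the G1/S step 9 fell (23.7% against 7.67% of all genes) and none rose. Their median log2 fold change was -0.30, and 34 of the 38 had a negative value. With the replicate block 26 fell and 3 rose, where 16.7% of all genes were called lower and 18.2% higher. UHRF1 had 92.3 and 86.5 CPM in NCI-H1703 and 54.9 and 36.8 in NCI-H1703R (-0.96, adjusted p = 0.0353), CDC25A had 58.8 and 64.9 against 29.0 and 34.5 (-0.96) and CCNE2, a cyclin of the same step, fell by 0.71. Of 40 genes of mitosis 5 fell (12.5%) and 1 rose (2.5% against 7.06% of all genes), 20 and 1 with the block, with a median of -0.21. CDC20, CCNB1 and FOXM1 fell (-0.55, -0.42 and -0.36), and CDC25B rose by 0.55. None of the G1/S and mitosis genes was called without NCI-H1703 replicate 1 or without NCI-H1703 replicate 2. Around cyclin D1 the changes were mixed, with CDK6 lower (-0.73), CCND2 higher (0.35) and CDK4 at 295 and 309 against 348 and 385 CPM (adjusted p = 0.152, and 0.00701 with the block). The CDK inhibitors CDKN1A and CDKN1B fell (-0.98 and -0.46). Of 15 genes of the BCL2 family only BCL2, an inhibitor of apoptosis, was called, or 6.67% lower against 7.67% of all genes. It went from 5.77 and 7.15 CPM to 2.08 and 2.46 (-1.50, adjusted p = 0.0226). With the block 2 members were also called higher.

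The list of p53, the transcription factor of the DNA damage response, and its targets was split. Of 26 tested 6 rose (23.1% against 7.06% of all genes) and 4 fell (15.4% against 7.67%). With the block 11 rose and 6 fell, and the median log2 fold change without it was 0.00. FAS, a death receptor, rose by 1.70 (adjusted p = 0.00478), and TP53I3 and SESN2 rose by 0.72 and 0.57. CDKN1A, the target most often read for p53, was among those that fell. Of 19 Notch pathway genes 2 rose and 2 fell (10.5% each), 6 and 4 with the block. NRARP, a feedback inhibitor of Notch, fell by 1.62 and the receptor NOTCH3 fell by 0.43, while the ligand JAG2 rose by 0.53. Of 18 multidrug transporter genes 2 rose (11.1%) and 3 fell (16.7%), 5 and 5 with the block. MVP, the major vault protein, had 229.9 and 230.1 CPM against 361 and 372 (0.67, adjusted p = 0.0104), ABCC1, an exporter of drugs and glutathione conjugates, rose by 0.33, and ABCA1, an exporter of cholesterol, fell from 5.98 and 5.68 CPM to 1.78 and 1.09 (-2.02, adjusted p = 0.0153).

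Genes of metabolism changed in both directions. Of 30 genes of cholesterol synthesis 7 fell (23.3% against 7.67% of all genes) and 2 rose, 14 and 2 with the block, and the median log2 fold change was -0.21. SQLE, an enzyme of sterol synthesis, and the desaturase FADS2 fell (-0.61 and -0.64), while SCD, another desaturase, was among the 10 largest rises in CPM, from 1613 and 1729.7 to 2249.9 and 2303 CPM (0.45, adjusted p = 0.0807). Of 34 genes of glycolysis and the response to hypoxia 7 fell (20.6%) and 2 rose, 12 and 7 with the block, and the median was -0.02. HK2 fell from 15.3 and 16.9 to 4.00 and 4.61 CPM (-1.90), and ALDOA, SLC2A3 and NDRG1 fell (-0.79, -0.69 and -0.85). Of 41 nuclear genes of oxidative phosphorylation 2 rose and 2 fell (4.88% each, against 7.06% and 7.67% of all genes). With the block 18 rose and 6 fell, where 18.2% of all genes were called higher and 16.7% lower. Metallothioneins, which bind zinc and copper, and heat shock genes formed a list of 17. Of these 5 fell (29.4%) and 1 rose (5.88%), 9 and 1 with the block. MT2A had 57.8 and 57.4 CPM against 9.18 and 9.14 (-2.65, adjusted p = 0.000392). MT1L had 484 and 366 counts in the NCI-H1703 replicates and 0 and 0 in the NCI-H1703R replicates, at least 148-fold lower against the limit of 3 counts per library, and MT1E had 268 and 240 counts in the NCI-H1703 replicates and 3 and 1 in the NCI-H1703R replicates, a ratio of 134 (95% interval of the counts 51.8 to 492). Members of this family share sequence, so reads could be split between them.

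**Figure D4:**
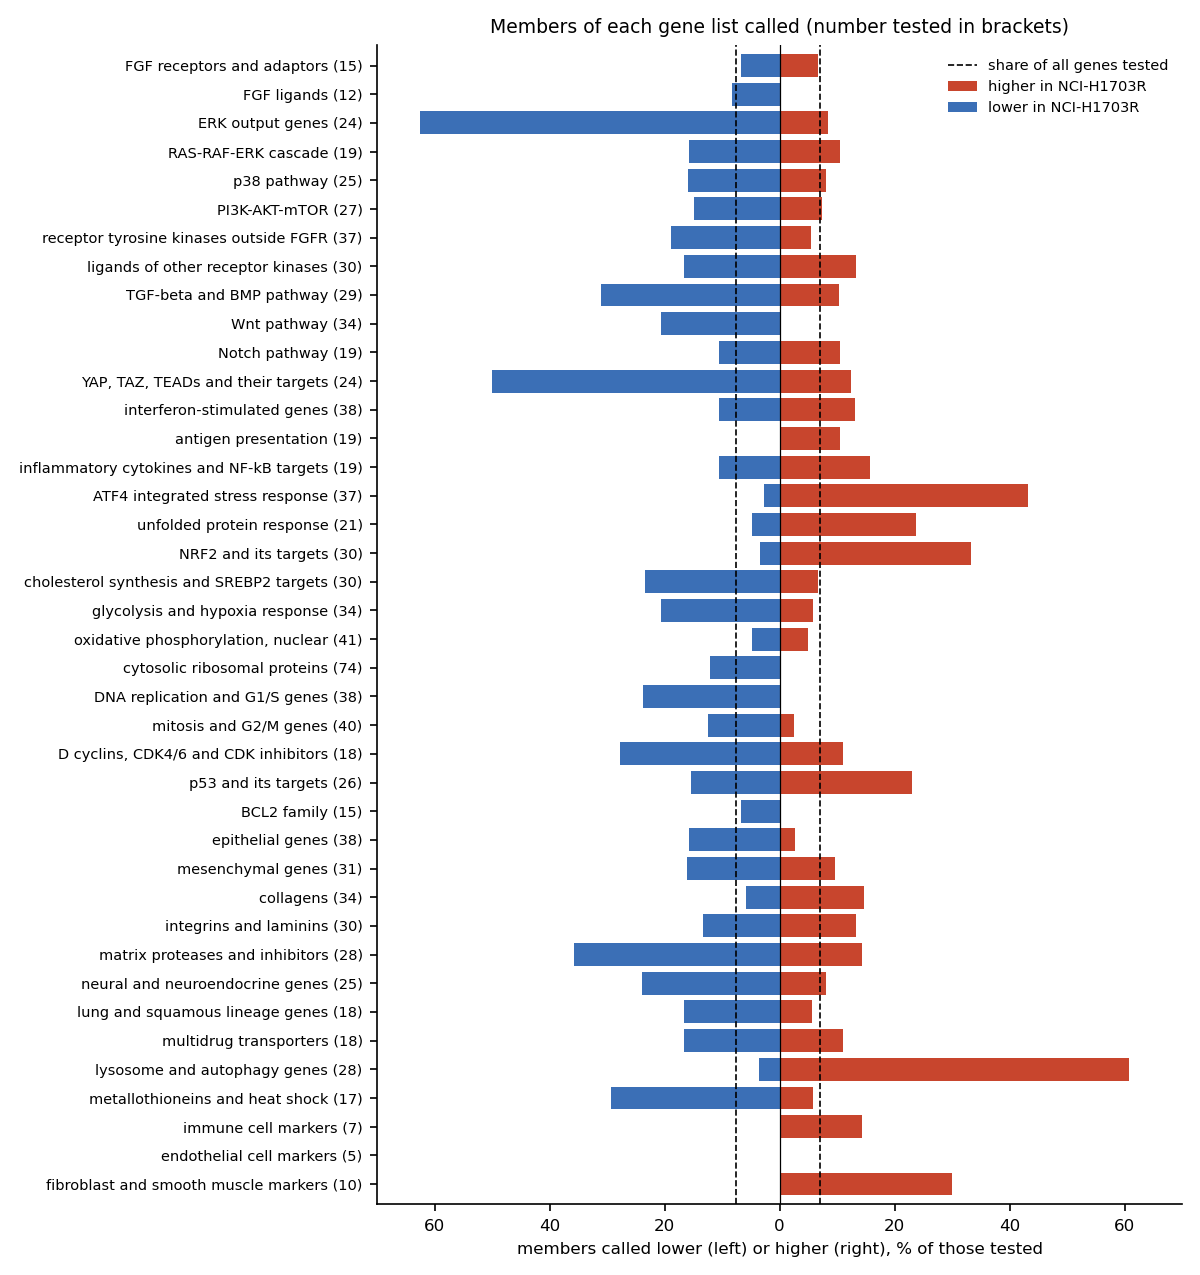
Share of the tested members of each of the 40 gene lists that were called higher (red, right) or lower (blue, left) in NCI-H1703R, in percent, with the number tested in brackets. Dashed lines mark the shares of all genes tested, 7.06% higher and 7.67% lower. Lysosome and autophagy genes, the ATF4 response and the NRF2 list reach furthest to the right among lists of 20 or more genes, and ERK output genes and the YAP-TEAD list furthest to the left.

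The largest changes of single genes were not all in these lists. NR0B1, a nuclear receptor that represses transcription (the gene is on chromosome X from 30304206 to 30309390), had the largest rise in log2 fold change among genes with a mean of at least 5 CPM, from 2.04 and 1.38 CPM to 76.5 and 74.8 (log2 fold change 5.45, SE 0.17, adjusted p = 0.000199). COQ2, an enzyme of coenzyme Q synthesis, went from 0.926 and 0.991 to 30.3 and 31.8 CPM (5.02), and the fatty acid hydroxylase CYP4F11 from 2.94 and 2.25 to 79.4 and 67.4 (4.81). DOCK10, an activator of small GTPases, went from 13.4 and 18.3 to 394 and 381 CPM (4.62), GJA1, the gap junction protein connexin 43, from 0.688 and 0.661 to 12.7 and 18.5 (4.52) and MAT1A, which makes S-adenosylmethionine, from 6.24 and 6.58 to 88.1 and 96.8 (3.85). FSTL5, CLIC3, AMIGO2 and MXRA8 rose by between 4.28 and 5.21. PLEKHG1 had 41 and 2 counts in the NCI-H1703 replicates and 404 and 408 in the NCI-H1703R replicates, so that its change depends on which sensitive library is read (3.32 to 7.42 with each library left out).

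Among falls, UNC13A, a protein of synaptic vesicle release, went from 32.3 and 28.4 CPM to 0.324 and 0.504 (-6.18), the zinc transporter SLC39A4 from 19.1 and 19.1 to 0.567 and 0.689 (-4.92), FHOD3, an actin assembly factor, from 17.7 and 14.5 to 0.648 and 0.318 (-5.06) and TGM2, a transglutaminase that crosslinks proteins, from 366 and 352 to 12.4 and 20.7 (-4.44, adjusted p = 0.000804). BTBD6 and CLSTN2 fell (-5.46 and -4.77), and BTBD6 overlaps BRF1 on the other strand. PNMA8A had 421 and 415 counts in the NCI-H1703 replicates and 3 and 3 in the NCI-H1703R replicates, a ratio of 146 (95% interval of the counts 67.0 to 400). On the CPM scale CAVIN1, a coat protein of caveolae, had the largest fall, from 1893 and 2302 CPM to 1084 and 1435 (-0.74, adjusted p = 0.0675). The actin crosslinker FLNA had 2441 and 2361 CPM against 1777 and 1697 (-0.47), the kinase SGK1 had 709 and 780.0 against 138 and 172 (-2.27) and IGFBP3, a binding protein of insulin-like growth factors, had 482 and 685 against 41.7 and 63.8 (-3.47, adjusted p = 0.00207).

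Part of the small changes followed the position of genes on chromosomes. Among 242 windows of 10 Mb that held at least 15 genes with a mean of 5 CPM or more, the median log2 fold change had quartiles of -0.01 and 0.10, while 9 windows had a median under -0.3 and 5 a median over 0.3. The lower windows held 216 of the 1006 genes of that level that were called lower and placed. The strongest was on the long arm of chromosome 19. Between 49.5 and 57.5 Mb, limits set after seeing the values, all 94 genes of at least 5 CPM had a negative log2 fold change and 86 were called lower, and their median was -1.08, which is 2.11-fold lower. In the 94 genes from 44 to 49.5 Mb the median was -0.05, and in the 31 genes from 57.5 to 59 Mb it was -0.22. On chromosome X between 40 and 60 Mb, 68 of 82 such genes were called higher and the median was 0.77, which is 1.71-fold higher. TFE3 (0.72) and ARAF (0.76) lie there with changes close to that median. These medians stayed between -1.11 and -1.05 and between 0.76 and 0.81 when each library was left out, whereas the calls did not hold. On chromosome 19 it was 25 genes that were called lower without NCI-H1703 replicate 1, 24 without NCI-H1703 replicate 2, 74 without NCI-H1703R replicate 1 and 64 without NCI-H1703R replicate 2, and on chromosome X it was 8, 8, 53 and 55 genes that were called higher. Copy number was not analysed here, and its part in these values was not tested.

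Smaller shifts lay over genes of the signalling lists. The window of chromosome 8 from 30 to 40 Mb, which holds FGFR1 (-0.51) and EIF4EBP1 (-0.54), had a median of -0.36 with 15 of 29 genes called lower, of which 1 was left without NCI-H1703 replicate 1 and 1 without NCI-H1703 replicate 2. The window from 120 to 130 Mb, which holds MYC (-0.27), had a median of -0.34. TGFBR2 (-0.83) lies in a window of the short arm of chromosome 3 with a median of -0.34. Ribosomal protein genes, which were lower in 9 of 74 cases and higher in none (29 and 2 with the block, and 3, 1, 4 and 14 lower without NCI-H1703 replicates 1 and 2 and NCI-H1703R replicates 1 and 2), lay in such windows in 6 of the 9 cases. RPL28 (-1.23) lies in the 50 to 60 Mb window of chromosome 19, whose median was -0.93, RPSA (-0.68), RPL14 (-0.50) and RPL32 (-0.55) lie in 3p windows of -0.34, -0.39 and -0.32, and RPL8 (-0.62) in a window of chromosome 8 of -0.39. RPL13A (-1.04) lies just before 49.5 Mb of chromosome 19, and RPS23 (-0.45) in a window with too few genes for a median. The share of ribosomal protein genes called lower was 12.2%, against 7.67% of all genes. They have many processed pseudogenes that can share reads. None of the 17 called ERK output genes lay in a window past 0.3 in its own direction, nor did any of the 17 called genes of the ATF4 response (although ATF5 lies in the 49.5 to 57.5 Mb stretch of chromosome 19), the 11 called genes of the NRF2 list or, apart from TFE3, the 18 called lysosome and autophagy genes.

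**Figure D5:**
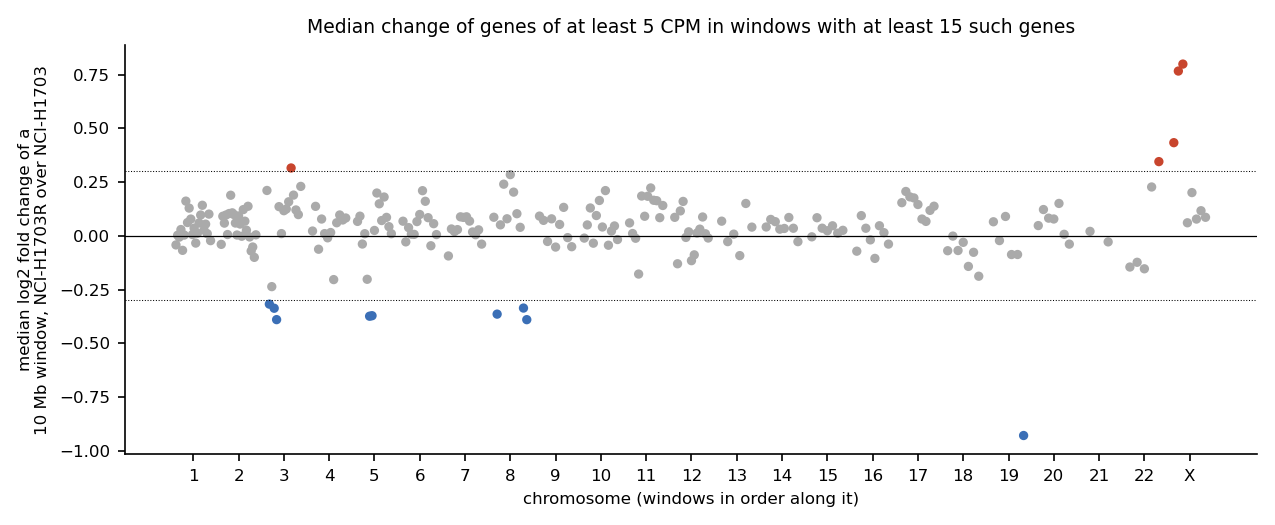
Median log2 fold change of NCI-H1703R over NCI-H1703 in 10 Mb windows, each point a window, ordered along each chromosome. Windows with fewer than 15 genes of at least 5 CPM are left out, dotted lines stand at 0.3 and -0.3, and red and blue mark the windows beyond them. The window at the end of chromosome 19 lies lowest, near -0.93, and the 2 windows of chromosome X near 0.8 lie highest.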

How the data were processed

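RNA of 2 NCI-H1703 and 2 NCI-H1703R cultures was sequenced on an Illumina platform. Per the labels and the study's methods, the authors trimmed reads with cutadapt, quantified transcripts of GRCh38 with Salmon and summed them to genes with tximport, and each deposited value is the estimated count of a gene, a whole number without normalisation. Tool versions, annotation, tximport scaling and use of strand are not given in the sources used here. Of 37441 genes, 18203 with at least 10 counts over the 8 libraries of the series were tested.

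The counts were taken as deposited and fitted with edgeR 4.0.16 in R 4.3.3 (TMM, quasi-likelihood test), as 2 against 2 libraries without a block, at an adjusted p under 0.1. Log2 fold changes are NCI-H1703R over NCI-H1703. The standard error (SE) is the absolute log2 fold change divided by the square root of the F statistic of the test. It can fall below counting error where a variant has few counts, and it is not given for FGF5, SOX2 and CDH2. CPM values use TMM library sizes. Symbols and positions are from GENCODE 44 on GRCh38. Intervals cover counting error only. Replicates are repeats of 1 culture procedure, so p-values measure the spread between these libraries. Replicates of a variant differed beyond counting noise (chi-square per degree of freedom 23.3 and 31.9). Replicate 2 repeated the procedure for both variants, and the deviations of same-numbered libraries correlated (Pearson's r = 0.214 over 12193 genes), so the fit with the replicate number as a block is given where it changes a call or the count of a list. Other alternatives were DESeq2 1.42.0, RLE factors, 2 other filters, all 8 libraries in 1 fit, a threshold of 0.05, older quasi-dispersions (chosen after seeing the data) and each library left out. The scripts were tested on simulated data.

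The gene lists and the members described were chosen with earlier results of these data known. Named were the 15 called genes with the largest log2 fold change in each direction among non-overlapping genes of at least 5 CPM, the 10 largest differences in CPM in each direction, up to 6 called genes in each direction and 6 others by level of each list, and genes that the study follows in the resistant variants. Not every gene so chosen is printed, and some are not reported here. Chosen after their values were seen were AJUBA, ASNS, ATP6V0D1, CDH1, DUSP5, EGFR, ETV1, ETV5, HEXA, IER2, MCOLN1, NFE2L2, PHLDA1, PLAUR, RPL14, RPL32, RPS23, SLC3A2, SPRED1, SPRED2, SPRED3, TFE3, TFEB and WIPI1.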

Additional observations from a re-analysis of the deposited data

How the results depend on the processing

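The number of called genes moved with the design more than with the tool. It was 2683 as reported, 3037 with DESeq2, 2509 with RLE factors, 2215 without a filter, 3185 with at least 10 counts in each library and 2626 with older quasi-dispersions. It was 6357 with the replicate block (3311 higher and 3046 lower), 1730 with all 8 libraries in 1 fit (679 higher) and 1640 at an adjusted p under 0.05 (748 higher and 892 lower). With each library left out it lay between 274 and 1686 (80 to 797 higher and 194 to 962 lower). In those fits 1 variant had a lone library, assumed to vary like the other group. Of the 213 genes named, 200 kept direction and side of the threshold with DESeq2, 202 with RLE factors, 201 without a filter, 196 with at least 10 counts in each library and 182 with all 8 libraries. The replicate block brought 17 of the 25 uncalled genes under the threshold and changed no other call. Direction reversed only for genes that were not called. MAPK14 was at -0.0054 on the log2 scale with DESeq2, at -0.0052 with RLE factors, at -0.022 with all 8 libraries, at -0.0011 with at least 10 counts in each library and between -0.11 and 0.12 with each library left out. With each library left out MAPK3 lay between -0.011 and 0.15 and FGFR2 between -0.83 and 1.28. The cause was not tested, except that fewer libraries entered the fits that left 1 out. Genes near 3 counts per library have no reliable fold change.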

Other observations

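Genes of the interferon response and of inflammation changed in both directions. IFITM1 and IFITM2, which block the entry of viruses, were among the larger falls. IFITM1 had 16.8 and 15.6 CPM in NCI-H1703 and 0.540 and 0.530 in NCI-H1703R (log2 fold change -4.91, adjusted p = 0.000662), and IFITM2 had 109 and 105 CPM against 12.9 and 18.9 (-2.75, adjusted p = 0.00137). The neighbouring IFITM3 had 240.1 and 237 CPM against 192 and 222 (-0.20, adjusted p = 0.297, and 0.0524 with the block). The 3 genes are close copies, and how their shared reads were split is uncertain. Of 38 interferon-stimulated genes tested 5 rose and 4 fell, or 13.2% and 10.5% against 7.06% and 7.67% of all genes, and 9 and 6 did with the replicate block. IFI35 rose by 0.90 and IFIT3 by 1.03 on the log2 scale, and OASL fell by 3.01. Of 19 genes of antigen presentation HLA-E, a ligand of inhibitory receptors on natural killer cells, rose from 145 and 156 CPM to 269 and 285 (0.88, adjusted p = 0.00528), HLA-B rose by 0.33 and none fell. These 2 were 10.5% of the list, against 7.06% of all genes called higher, and with the replicate block 4 rose.

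Among 19 inflammatory cytokines and NF-kB targets 3 rose (15.8%) and 2 fell (10.5%), 3 and 6 with the replicate block. CXCL1 and CXCL3 attract neutrophils. CXCL1 went from 1.01 and 1.05 CPM to 11.2 and 15.1 (log2 fold change 3.67, adjusted p = 0.00224), and CXCL3 from 0.291 and 0.0601 to 4.10 and 3.84 (4.42, adjusted p = 0.007). CSF1, the growth factor of macrophages, had 23.4 and 26.3 CPM and then 63.8 and 79.0 (1.52, adjusted p = 0.00361). The resistant libraries lay above the sensitive ones in all 3 genes, but 51.2% of all genes did not overlap between the variants. CCL5, which attracts T cells, went the other way, from 10.7 and 9.76 to 3.67 and 3.34 CPM (-1.54, adjusted p = 0.0081), and TNFAIP3, an inhibitor of NF-kB, fell by 0.64.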
